A study of Mus musculus with 8 samples.

Results

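The genes described here are 10 genes of endothelial identity and of angiopoietin-Tie signalling: Cdh5, Pecam1, Esam, Icam2, Tie1, Tek, Angpt1, Angpt2, S1pr1 and Egfl7. They were found by the gene name printed with each array probe, which gave 14 probes of the 41174 on the array, for 10 of 21377 named genes. S1pr1 stands on the array under its older name Edg1, and Esam stands there as Esam1 and was matched through its transcript accession. The samples were hearts of male mice aged 12 weeks, 4 overexpressing PKR2 and 4 wild-type (WT), with 1 array per mouse. PKR2 is read as prokineticin receptor 2, the G protein-coupled receptor encoded by Prokr2. The labels name no promoter, transgenic line or genetic background for either group.

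On all 8 arrays the probe listed for Prokr2 stayed at background level, so it did not check the labels. The 75th percentile of processed signal ran from 40.9 to 770 between arrays, and 48.3% to 67.1% of spots were well above background. The number of arrays, 4 per group, limits the precision. The arrays lay on 6 slides, of which slide 5 (WT 3 and PKR2 3) and slide 6 (WT 4 and PKR2 4) held both groups. All PKR2 arrays and WT 1 had array position 4, while WT 2 and WT 3 had position 3 and WT 4 position 2. Position and genotype can thus be told apart only through WT 1. All 10 cardiomyocyte markers and all 25 further endothelial markers looked for passed the filter on dim probes.

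Endothelial cells line the vessels and the heart chambers and hold together through VE-cadherin (Cdh5) and immunoglobulin-type adhesion molecules such as PECAM-1, ESAM and ICAM-2. Angiopoietin 1, made mainly by cells around the vessel, activates the receptor kinase Tie2 (Tek) and stabilises the endothelium, while angiopoietin 2, made by endothelial cells, acts on the same receptor in a context-dependent way, and Tie1 modulates it. S1pr1 is the main endothelial receptor for the lipid sphingosine 1-phosphate, which strengthens junctions, and Egfl7 is a secreted endothelial protein whose gene also hosts the microRNA miR-126.

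Promoter windows from RefSeq on build GRCm38.p6, each of 300 bases from 250 before to 50 after an annotated start, were at hand for 3 of the 10 genes, Tie1, Tek and Egfl7, and are shown for that reason. Capitals mark the ETS-type word CAGGAA and the GATA-type word AGATAA, read on either strand (TTCCTG and TTATCT), which do not overlap here.
Tie1, chr4:118489800-118490099, minus strand: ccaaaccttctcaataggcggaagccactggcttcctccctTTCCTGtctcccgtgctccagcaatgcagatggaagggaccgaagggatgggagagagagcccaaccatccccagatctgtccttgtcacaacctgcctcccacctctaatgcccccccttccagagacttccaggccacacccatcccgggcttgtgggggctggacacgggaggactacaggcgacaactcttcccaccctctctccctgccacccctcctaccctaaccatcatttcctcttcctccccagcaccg
Tek, chr4:94739039-94739338, plus strand: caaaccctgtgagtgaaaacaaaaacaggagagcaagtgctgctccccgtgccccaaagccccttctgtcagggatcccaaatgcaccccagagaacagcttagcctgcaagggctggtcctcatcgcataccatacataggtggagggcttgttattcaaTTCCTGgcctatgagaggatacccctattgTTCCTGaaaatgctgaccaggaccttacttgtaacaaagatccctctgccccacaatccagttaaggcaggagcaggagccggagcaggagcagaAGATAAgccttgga
Egfl7, first start, chr2:26580833-26581132, plus strand: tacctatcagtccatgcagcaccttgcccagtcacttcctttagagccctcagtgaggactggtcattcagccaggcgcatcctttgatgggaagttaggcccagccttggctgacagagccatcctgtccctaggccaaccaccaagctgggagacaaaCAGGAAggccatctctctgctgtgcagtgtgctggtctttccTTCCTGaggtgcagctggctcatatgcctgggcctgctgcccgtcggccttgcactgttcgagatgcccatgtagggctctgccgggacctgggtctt
Egfl7, second start, chr2:26583615-26583914, plus strand: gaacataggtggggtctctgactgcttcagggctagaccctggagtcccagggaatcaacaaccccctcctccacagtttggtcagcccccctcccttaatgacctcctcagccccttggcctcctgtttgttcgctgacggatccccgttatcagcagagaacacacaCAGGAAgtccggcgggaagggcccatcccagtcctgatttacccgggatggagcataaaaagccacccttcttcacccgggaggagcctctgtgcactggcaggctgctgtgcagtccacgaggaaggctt
The Tek window holds 2 ETS-type words, at -89 and -59 from the start, and 1 GATA-type word at 36. Tie1 has 1 ETS-type word at -209, and the Egfl7 windows shown have 2 and 1. The window of the remaining Egfl7 start (chr2:26586386-26586685) has 0 of either word and is not printed. Of all 32851 mouse windows of this length, 30.6% hold CAGGAA on either strand and 11.2% hold AGATAA, so these words are common. A match is a description of the letters, not of a bound site.

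Compared without pairing, no member differed between PKR2 and WT hearts beyond the spread between mice. Of the 14 probes, 13 were well above background on all 8 arrays and were tested, and 0 of these 13 passed an adjusted p of 0.05 in limma (Benjamini-Hochberg over 22717 probes; 0% of all tested probes passed). At an unadjusted p under 0.05 the members again had 0 of 13, against 1.39% of all probes higher and 1.19% lower. In 0 of 13 did the groups not overlap, against 1.06% of all probes higher and 0.77% lower. A level below is the log2 signal minus the 75th percentile of its array, so that 0 is that percentile, and a difference is PKR2 minus WT on this log2 scale.

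Taking the brightest probe of each gene, 7 of the 10 had a higher mean in PKR2 and 3 a lower one, where 54.2% of all probes had a higher mean. The median difference was 0.078, beside 0.019 over all tested probes, and the differences ran from -0.13 (Tie1) to 0.46 (Angpt1). The adjusted p in limma was 0.9997 for every member. The 95% intervals of the 10 genes together span folds of 0.602 to 2.10. In bulk heart RNA, fewer endothelial cells and less RNA per endothelial cell cannot be told apart.

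In other settings of the fit, 0 of 13 member probes passed after adjustment, and some reached an unadjusted p under 0.05 in limma. When the comparison was made within slides 5 and 6 (slide as a fixed block), these were 2 of 13, Angpt1 (0.66) and the second Cdh5 probe (0.69), where 7.03% of all probes reached it. The same 2 probes reached it with slide as a random block (6.22% of all probes), with array weights (12.1%), without WT 1 (5.51%) and without PKR2 2 (3.94%), and the second Tek probe did without WT 2 (2.32%). All probes together thus reached it more often in these settings than the 1.39% higher and 1.19% lower of the fit without them, except without WT 2. The fixed slide block rests on 1 array per group on each of slides 5 and 6. Its p thus leans mostly on the variance that limma shares over probes. Within these slides the second Cdh5 probe differed by 0.38 (slide 5) and 0.999 (slide 6).

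**Figure D1:**
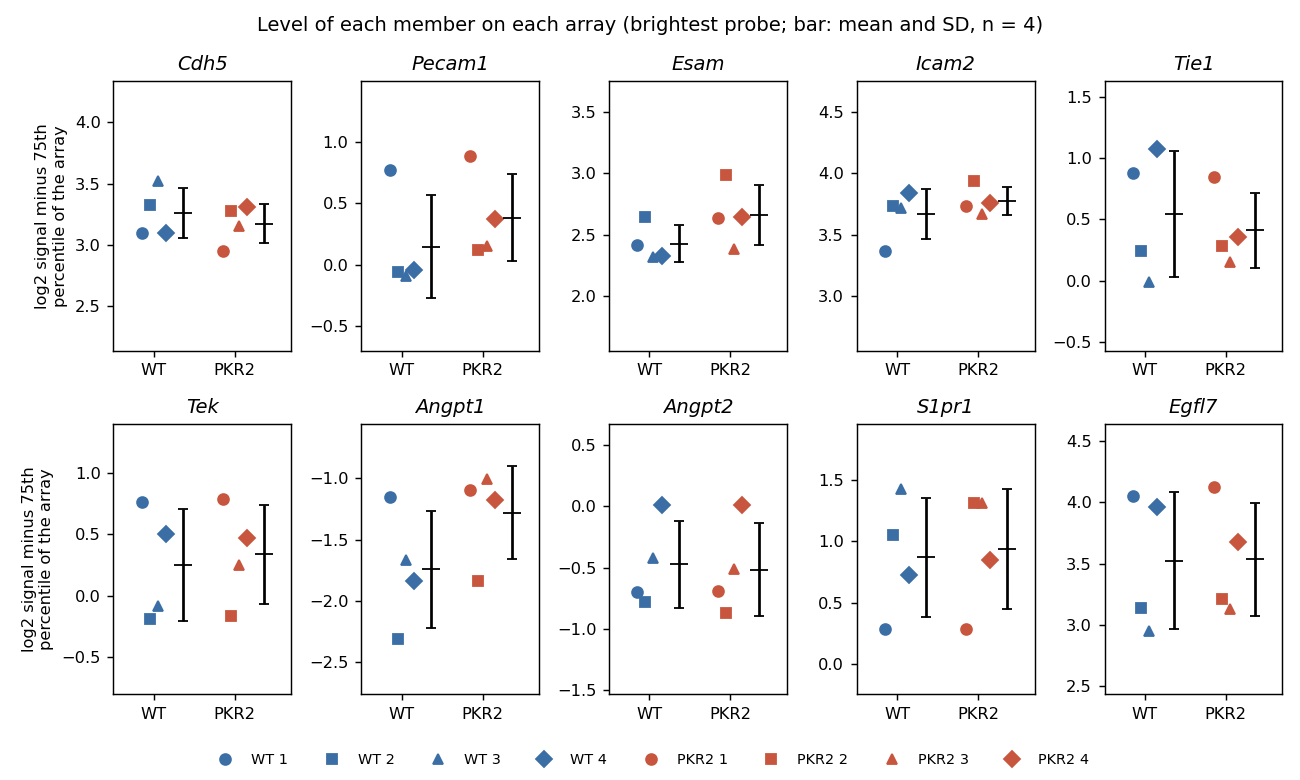
Level of the 10 genes on each array (brightest probe, log2 signal minus the 75th percentile of the array; every panel spans the same number of log2 units), with WT arrays in blue, PKR2 arrays in red, 1 marker shape per mouse number, and the mean and SD (n = 4) beside the points. WT and PKR2 points overlap for all 10 genes, and WT 1 and PKR2 1 sit together at the top for Egfl7 and Tek and at the bottom for S1pr1.

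**Figure D2:**
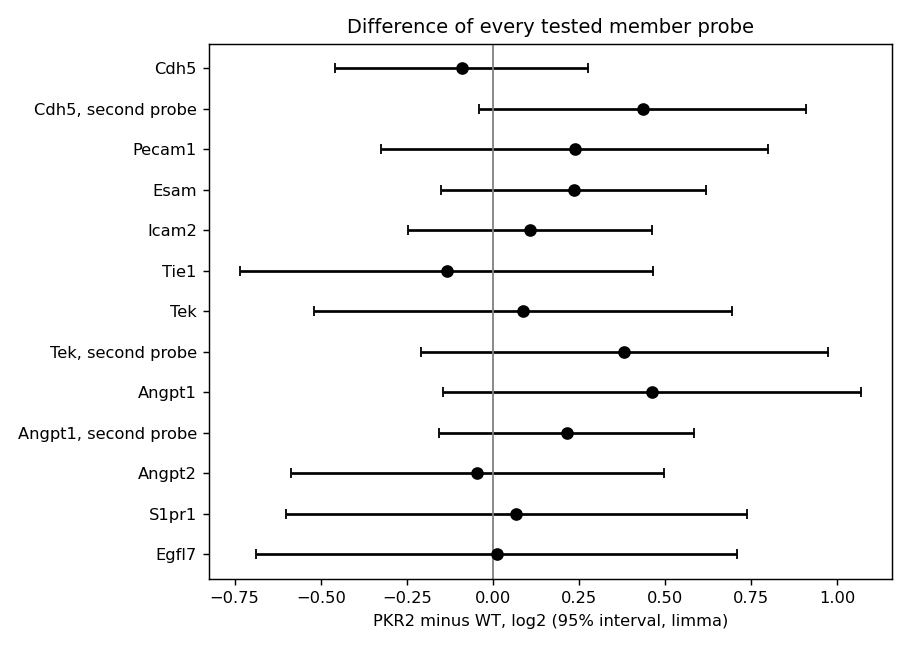
Difference between PKR2 and WT (log2) for the 13 tested probes, with the 95% interval from limma. All 13 intervals include 0, and the interval of the second Cdh5 probe comes nearest to leaving it out at -0.040.

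Among the adhesion genes, Cdh5 encodes VE-cadherin, the adherens junction protein of endothelium. Its brighter probe (mm8 chr8:107033388-107033447) gave 3.10, 3.33, 3.52 and 3.10 in WT 1 to 4 and 2.95, 3.27, 3.16 and 3.31 in PKR2 1 to 4. The ranges overlapped, with PKR2 1 lowest and WT 3 highest. The difference was -0.090 (SE 0.16, 95% interval -0.46 to 0.28, n = 4 per group, two-sided exact permutation p = 0.6). The second Cdh5 probe lies 660 bases away (mm8 chr8:107032728-107032787) and read 1.49, 0.85, 0.96 and 0.80 in WT against 1.57, 1.13, 1.34 and 1.80 in PKR2. Here the 3 lowest values were all WT, but WT 1 stood above PKR2 2 and PKR2 3. Its difference was 0.43 (SE 0.21, 95% interval -0.040 to 0.91, exact permutation p = 0.0857). The probes of Cdh5 thus had differences of opposite sign, and their levels correlated over the 8 arrays at r = -0.35. The gap between their differences was -0.52, with an exact permutation p of 0.114.

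Pecam1 encodes PECAM-1 (CD31), an adhesion receptor of endothelial junctions that platelets and leukocytes also carry. Its main probe, printed in 10 spots (mm8 chr11:106497165-106499018, a span of 1854 bases), gave 0.77, -0.064, -0.090 and -0.041 in WT and 0.89, 0.12, 0.15 and 0.37 in PKR2. WT 1 and PKR2 1 were the highest arrays, and the other 3 WT arrays lay below every PKR2 array. The difference was 0.24 (SE 0.25, 95% interval -0.33 to 0.80, exact permutation p = 0.429). It was 0.45 without WT 1 and 0.069 without PKR2 1. Over 79 unflagged spots the SD within an array was 0.027 to 0.22 (highest in PKR2 3), while the SD of the 8 array means was 0.38. That 0.38 includes the high WT 1 and PKR2 1 and the difference between the groups. WT 2, WT 3 and WT 4 lay about as close together as their own repeated spots (SD 0.070, 0.065 and 0.027). The second Pecam1 probe, designed on a cDNA clone (mm8 chr11:106497834-106497893), stayed at background level on all 8 arrays and was not tested. Platelet and leukocyte markers spread widely in PKR2 hearts. The mean platelet marker level, relative to the mean of the 8 arrays, ran from -0.35 to 0.58 in WT and from -1.07 to 0.55 in PKR2 (7 of 7 genes tested), and that of 8 leukocyte genes from -0.25 to 0.22 and from -0.40 to 0.73. Their part in the Pecam1 values was not tested.

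Esam encodes an immunoglobulin-type adhesion molecule of endothelial tight junctions. Its probe (mm8 chr9:37287630-37287689) gave 2.42, 2.64, 2.32 and 2.32 in WT and 2.63, 2.98, 2.38 and 2.64 in PKR2. PKR2 2 was highest, and WT 2 reached into the range of the other PKR2 arrays. The difference was 0.23 (SE 0.17, 95% interval -0.15 to 0.62, exact permutation p = 0.2). It was 0.13 without PKR2 2 and 0.48 with normexp background correction. Icam2 encodes a ligand of leukocyte integrins that endothelium carries constitutively. Its probe (mm8 chr11:106193821-106193880) gave 3.37, 3.74, 3.72 and 3.84 in WT and 3.73, 3.94, 3.66 and 3.76 in PKR2. Apart from a low WT 1 the values lay close together. The difference was 0.11 (SE 0.16, exact permutation p = 0.457). It was 0.0089 without WT 1 and 0.60 with normexp.

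Of the receptors, Tek encodes Tie2, the kinase that binds the angiopoietins. The brighter Tek probe (mm8 chr4:94366188-94366246) gave 0.76, -0.19, -0.081 and 0.50 in WT and 0.79, -0.17, 0.25 and 0.47 in PKR2. The groups had nearly the same range, with WT 1 and PKR2 1 at the top and WT 2 and PKR2 2 at the bottom. The difference was 0.088 (SE 0.27, 95% interval -0.52 to 0.70, exact permutation p = 0.8). The second Tek probe, designed on another cDNA clone, lies 132374 bases upstream (mm8 chr4:94233814-94233873). It gave -2.51, -1.58, -2.25 and -2.40 in WT and -2.14, -1.30, -2.14 and -1.62 in PKR2, a difference of 0.38 (SE 0.26, exact permutation p = 0.2). The Tek probes correlated at r = -0.62 over the 8 arrays. Whether the upstream probe reads the coding Tek transcript was not tested.

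Tie1 encodes the receptor-like kinase that pairs with Tie2. Its probe (mm8 chr4:117969459-117969518) gave 0.88, 0.24, -0.016 and 1.07 in WT and 0.84, 0.28, 0.15 and 0.35 in PKR2. WT 4, WT 1 and PKR2 1 were high and the other 5 arrays low. The difference was -0.13 (SE 0.27, 95% interval -0.73 to 0.46, exact permutation p = 0.743), and without WT 4 it was 0.041. The change of Tek relative to Tie1, taken array by array, was 0.22 higher in PKR2 (SD 0.24 in WT and 0.26 in PKR2, exact permutation p = 0.229). It was 0.17 within slide 5 and 0.69 within slide 6, each from 1 array per group.

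Of the ligands, Angpt1 encodes the activating ligand of Tie2 and had the largest difference among the 13 probes. Its brighter probe (mm8 chr15:42257097-42257156) gave -1.15, -2.31, -1.67 and -1.83 in WT and -1.09, -1.84, -1.01 and -1.18 in PKR2. PKR2 1, PKR2 3 and PKR2 4 exceeded 3 of the WT arrays and were close to WT 1, while PKR2 2 lay among the WT arrays. The difference was 0.46, a fold of 1.38 (SE 0.27 on the log2 scale, 95% interval -0.15 to 1.07, exact permutation p = 0.257). Within the slides that held both groups it was 0.66 on slide 5 and 0.66 on slide 6. Leaving out 1 array in turn gave 0.27 (without WT 2) to 0.66 (without WT 1), and with normexp background correction the sign turned, to -0.17. In the authors' deposited table the difference was 0.13. The lowest level, in WT 2, came from the array with the lowest 75th percentile of processed signal (40.9). The second Angpt1 probe, 69327 bases away (mm8 chr15:42326424-42326483), gave -1.51, -2.11, -1.80 and -1.89 in WT and -1.56, -1.64, -1.73 and -1.52 in PKR2. WT 1 was the highest array of all, and the other 3 WT arrays lay below every PKR2 array. Its difference was 0.21 (SE 0.17, exact permutation p = 0.171), and both probes correlated at r = 0.81, the closest of the pairs of probes. In the authors' deposited table the second probe differed by 0.023.

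Angpt2 encodes the ligand that endothelial cells store and release. Its probe (mm8 chr8:18691435-18691494) gave -0.70, -0.78, -0.42 and 0.011 in WT and -0.69, -0.87, -0.51 and 0.0083 in PKR2. The groups covered the same range, and the highest array of each, WT 4 and PKR2 4, shared slide 6. The difference was -0.045 (SE 0.24, 95% interval -0.59 to 0.50, exact permutation p = 0.8). The change of Angpt2 relative to Angpt1 was -0.51 (SD 0.60 in WT and 0.37 in PKR2, exact permutation p = 0.171). Within slides it was -0.75 and -0.66. Leaving out 1 array gave -0.78 (without WT 1, exact permutation p = 0.0571) to -0.31 (without WT 4, exact permutation p = 0.429). It was -0.10 with normexp and -0.25 in the authors' deposited table (exact permutation p = 0.686 and 0.343).

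S1pr1, the sphingosine 1-phosphate receptor, was read by 1 probe (mm8 chr3:115703106-115703165). It gave 0.28, 1.05, 1.43 and 0.73 in WT and 0.29, 1.32, 1.31 and 0.85 in PKR2. WT 1 and PKR2 1 were the lowest arrays. The difference was 0.068 (SE 0.30, 95% interval -0.60 to 0.74, exact permutation p = 0.829). Egfl7 was read by 1 probe (mm8 chr2:26414466-26414525), which gave 4.05, 3.14, 2.95 and 3.96 in WT and 4.12, 3.21, 3.13 and 3.67 in PKR2. WT 1, WT 4, PKR2 1 and PKR2 4 were high. The difference was 0.010 (SE 0.31, 95% interval -0.69 to 0.71, exact permutation p = 1).

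The members differed more from mouse to mouse than between the groups. By the brightest probe of each gene, the share of variance over the 8 arrays that lay between the groups was 0.013% for Egfl7, 0.498% for Angpt2, 0.645% for S1pr1 and 1.38% for Tek, and reached 30.3% for Esam. Its median over these 10 probes was 5.39%. Over all 13 tested member probes the median was 11.1% and the highest share 40.7% (second Cdh5 probe). Over all tested probes of the array the median was 5.34%. Egfl7 had the widest SD over the 8 arrays among the 10 genes, at 0.47, and Icam2 the narrowest, at 0.17, where the median of all probes was 0.31.

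This variation had a common shape. Each gene was read here by its brightest probe. Of the 45 pairs among the 10 genes, 23 had a correlation above 0 and 22 below 0 over the 8 arrays, with a median of 0.012. The genes thus did not rise and fall as a block. Egfl7 moved with Tie1 (r = 0.93) and Tek (r = 0.92), and S1pr1 moved against Egfl7 (r = -0.95), Tek (r = -0.88) and Tie1 (r = -0.86). These are descriptions over 8 arrays that share their scaling.

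**Figure D3:**
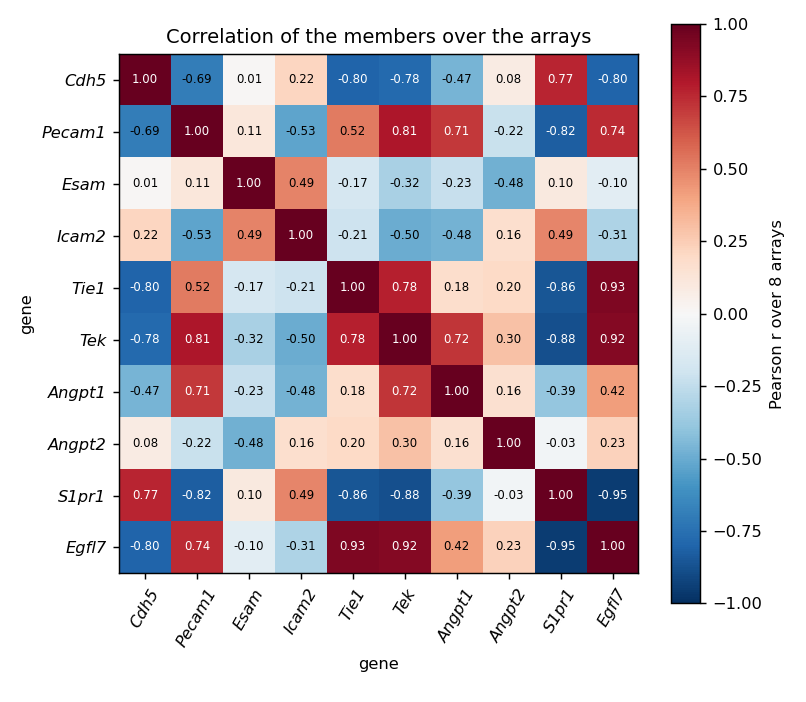
Pearson correlation of the 10 genes over the 8 arrays (brightest probe of each gene, red above 0, blue below 0). Tie1, Tek and Egfl7 correlate above 0 with each other, and S1pr1 and Cdh5 lie below 0 with all 3.

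Correlations of 7 pairs were tested by exact permutation of the 8 arrays, with Benjamini-Hochberg adjustment over the 7. S1pr1 and Egfl7 had r = -0.95 (exact permutation p = 0.000223, adjusted 0.00156) and Spearman's rho of -0.90 (exact permutation p = 0.00456, adjusted 0.0319). It was -0.92 without WT 1 and PKR2 1, and -0.95 after each group's mean was removed. It held with quantile normalization (-0.95) and in the authors' deposited table (-0.97), but fell short after adjustment with median scaling (-0.79, adjusted exact permutation p = 0.0791) and was -0.35 with normexp background correction (adjusted exact permutation p = 0.576). Slides and scan ranges (3 arrays and 5 arrays) hold fewer than 6 arrays each, so no correlation was computed within them. S1pr1 and Egfl7 also follow the main component of all probes, given below (r = -0.88 and 0.89). The share of other probe pairs at this correlation was not computed, so the p-value does not single out this pair.

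The other 6 pairs did not pass after adjustment. The receptors Tie1 and Tek had r = 0.78 (rho 0.71, exact permutation p = 0.0329, adjusted 0.103), and 0.77 without the arrays farthest out, WT 1 and WT 4. Angpt1 and its receptor Tek had r = 0.72 (rho 0.67, exact permutation p = 0.0553, adjusted 0.103), and Angpt2 and Tek 0.30 (rho 0.38, adjusted exact permutation p = 0.529). The ligands Angpt1 and Angpt2 had r = 0.16 (rho 0.26, adjusted exact permutation p = 0.703). By its brighter probe Cdh5 ran opposite to Pecam1, with r = -0.69 (rho -0.79, adjusted exact permutation p = 0.103), which fell to -0.33 without WT 3 and PKR2 1. This r depended on the processing. It was -0.73 with median scaling and -0.36 with quantile normalization, but -0.074 in the authors' deposited table and -0.047 with normexp. Esam and Icam2 had r = 0.49 (rho 0.48, adjusted exact permutation p = 0.289). All pairs used the brightest probe of each gene. The second probes of Cdh5 and Tek correlated with the brighter ones at r = -0.35 and -0.62, so signs can depend on the probe. Pairs with second probes were not tested.

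The same shape ran through the whole array. The first principal component of all 22717 tested probes held 36.5% of their variance and set WT 1 (0.47) and PKR2 1 (0.48) against WT 2 (-0.39), WT 3 (-0.39) and PKR2 2 (-0.45), with WT 4 (0.11), PKR2 3 (0.025) and PKR2 4 (0.16) between. Arrays of both genotypes stood at each end. Over the 8 arrays Tek followed this component at r = 0.99, Egfl7 at 0.89, Pecam1 at 0.84, and Angpt1 and Tie1 at 0.74 each, while S1pr1 ran against it at -0.88 and Cdh5 at -0.79. Esam (-0.30) and Angpt2 (0.22) followed it least. The second probes of Cdh5 (0.66) and Tek (-0.59) took the opposite sign to the brighter probes of the same genes. What sets this component was not tested. With it as a covariate, chosen after the data were seen, the differences of Tek and Egfl7 were -0.024 and -0.11, and 0 of 13 member probes passed in limma, with 2 at an unadjusted p under 0.05 (the second probes of Cdh5, 0.38, and Tek, 0.46), where 4.7% of all probes reached it.

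**Figure D4:**
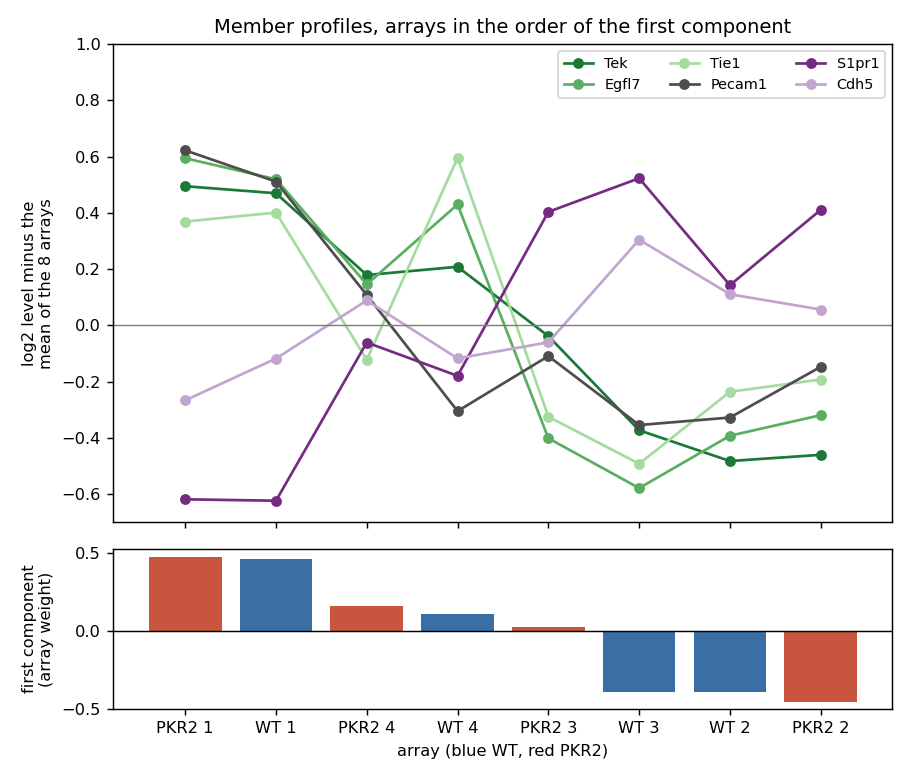
Upper panel: log2 level of 6 genes minus the mean of the 8 arrays, with arrays ordered by the first principal component of all tested probes; lower panel: the weight of each array on that component (blue WT, red PKR2). Tek, Egfl7 and Pecam1 are high at the left end, where PKR2 1 and WT 1 stand, and S1pr1 is low there.

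By the mean of the 8 endothelial genes other than the ligands, each centred on its own mean, the arrays lay between -0.15 (WT 3) and 0.16 (PKR2 1), with WT 1 at 0.086, WT 2 at -0.13, WT 4 at 0.067, PKR2 2 at 0.0011, PKR2 3 at -0.093 and PKR2 4 at 0.060. The groups overlapped. Among 13128 other genes with a symbol, the nearest in profile to this mean over the 8 arrays were Mettl3 (r = 0.98), Nelfe (0.97), Rad52 (0.96), Dnmbp (0.95) and Asf1b (0.95). For Angpt1 they were Zfp473 (0.98), Adamtsl1 (0.97), Pirt (0.97), Ubn1 (0.97) and Pan3 (0.97), and for Angpt2 Armcx1 (0.98), Cr1l (0.97), Trim2 (0.95), Cep76 (0.95) and Zfp101 (0.95). With so many genes and 8 arrays, correlations of this size are found by search, and none of these 15 genes is an endothelial marker of the lists used.

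Genes that act with the members were looked at next. In angiopoietin-Tie signalling, 0 of 17 tested genes passed in limma, 9 had a higher and 8 a lower mean in PKR2, and the median difference was 0.00059. The smallest p-values belonged to Nos3, the endothelial nitric oxide synthase (0.14, SE 0.15), Grb7, an adaptor protein (-0.53, SE 0.55), and Itga5, an integrin subunit (0.19, SE 0.23). Among partners of the endothelial junction, 0 of 17 passed, with 8 higher, 9 lower and a median of -0.015. Jup, which encodes plakoglobin, differed by 0.32 (SE 0.31), Ctnnd1, which encodes p120 catenin, by 0.27 (SE 0.36), and F11r, which encodes the adhesion molecule JAM-A, by 0.19 (SE 0.26). In both lists 0 genes reached an unadjusted p under 0.05, and Ptprb, a phosphatase that dampens Tie2 signalling, stands in both lists at -0.28 (SE 0.44).

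Of the other genes of sphingosine 1-phosphate handling, 0 of 9 passed in limma, with 3 higher, 6 lower and a median of -0.083. Sgpl1, the lyase that degrades the lipid, had groups that did not overlap, with a lower mean in PKR2 (1.91 ± 0.15 in WT and 1.60 ± 0.14 in PKR2, SD, n = 4; difference -0.31, SE 0.15), where 0.77% of all probes were lower without overlap. Its limma p missed 0.05 before adjustment (unadjusted p = 0.0739, adjusted 0.9997). Sphk1, a kinase that makes the lipid, differed by 0.20 (SE 0.26) and Plpp1, a lipid phosphatase, by -0.18 (SE 0.26). Of the Notch genes, a pathway on which Egfl7 acts, 0 of 14 passed, with 8 higher, 6 lower and a median of 0.0099. Hey2 (0.28, SE 0.23) and Hes1 (-0.26, SE 0.31), transcriptional targets of Notch, and its ligand Dll4 (0.28, SE 0.31) had the smallest p-values.

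The members were then set beside markers of the cells a heart sample can hold. Of the 25 other endothelial markers, 8 had a higher and 17 a lower mean in PKR2 (median -0.026, 0 passed in limma), where 7 of the 10 members were higher; that contrast was not tested. Their mean level, relative to the mean of the 8 arrays, ran from -0.16 to 0.14 in WT and from -0.14 to 0.10 in PKR2. Taken relative to this endothelial mean, 0 of the 13 member probes passed. Lymphatic (6 tested), endocardial (4), fibroblast (7), cardiomyocyte (10), platelet (7), leukocyte (8) and erythroid (3) markers also had 0 passing in limma and 0 at an unadjusted p under 0.05. Of the 10 mural markers, 6 had a higher and 4 a lower mean in PKR2 (median 0.025, 0 passed in limma). The smooth muscle actin gene Acta2 had a higher level in PKR2 without overlap between the groups (4.94 ± 0.058 and 5.31 ± 0.069, SD, n = 4; difference 0.36, SE 0.13; limma unadjusted p = 0.0217, adjusted 0.9997). Of all probes, 1.06% were higher in PKR2 without overlap, and 1.39% were higher at an unadjusted p under 0.05 in limma. Other smooth muscle genes of the list had lower means: Cnn1 differed by -0.59 (SE 0.41), Tagln by -0.44 (SE 0.39) and Myh11 by -0.19 (SE 0.38).

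Of the marker lists, adipocyte markers had the median difference farthest from 0. All 8 had a lower mean in PKR2, with a median of -2.17. In limma 6 of 8 reached an unadjusted p under 0.05, where 1.19% of all probes did so with a lower mean. After adjustment 0 of 8 passed, and the marker means overlapped (-0.10 to 1.45 in WT and -2.43 to 0.51 in PKR2). The marker mean was lowest in PKR2 1 (-2.43) and PKR2 2 (-2.25). As markers of 1 cell type, the 8 genes are not independent of each other. With the adipocyte mean as a covariate 0 of 13 member probes passed, and the sign of Angpt2 turned, to 0.22.

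**Figure D5:**
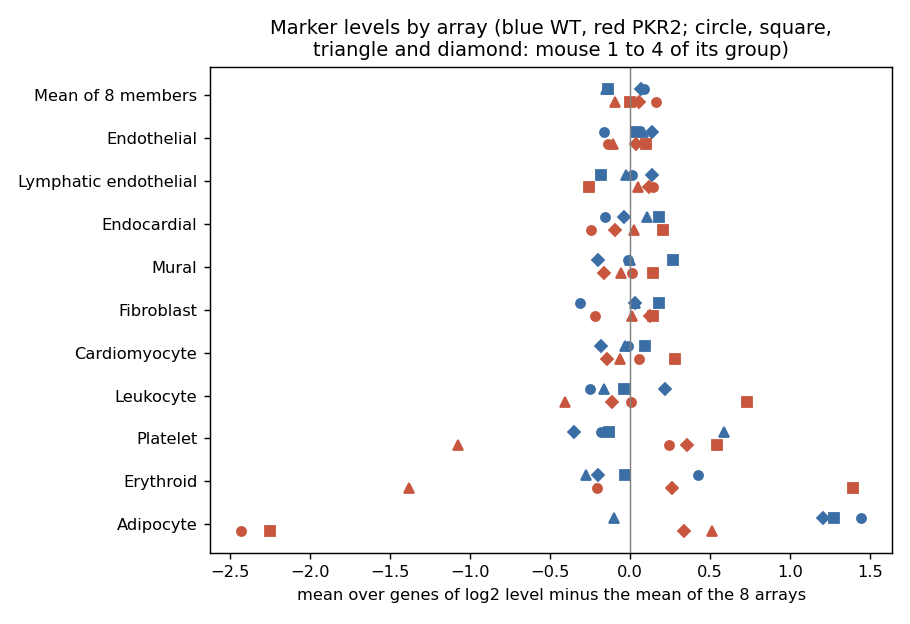
Mean over 8 members and over each marker list of the log2 level minus the mean of the 8 arrays (horizontal axis), with WT arrays in blue and PKR2 arrays in red. The members and the other endothelial markers stay within 0.2 of 0 on every array, while PKR2 1 and PKR2 2 are far below 0 for adipocyte markers.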

How the data were processed

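RNA of 8 hearts was hybridised to 1-colour arrays of mouse oligonucleotide probes after extraction with Tri-Reagent and labelling with Cy3, per the labels' protocols. Per the file headers, Agilent Feature Extraction 9.5.1.1 turned the scans into spot values, and probes are placed on mouse build mm8. The deposited values are intensity on a linear scale, background-subtracted within each array and not normalized between arrays. A second table by the authors, used as an alternative, has normalized intensity with column medians of 139 to 144; it was read as linear, and how it was normalized is not given in the sources used here.

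Here log2 of the processed signal minus the array's 75th percentile over non-control probes was used. Spots flagged as outliers were left out, and spots of 1 probe were averaged. Tests covered probes detected (well above background) on 3 or 4 of the 4 arrays of either group. Groups were compared over 22717 probes with limma 3.58.1 in R 4.3.3 (lmFit, eBayes, no covariate), with Benjamini-Hochberg adjustment at 0.05. The fit was run on simulated data of 22717 probes. It called 43 of 100 changes of 1 log2 unit and 81 of 100 changes of 2 log2 units, with 6 false calls. The simulated noise was independent between probes and arrays, unlike the real arrays, so these counts need not hold for them. Single values were also compared by two-sided exact permutation over 70 relabelings, whose smallest p is 0.0286. A gene was represented by its brightest probe. Levels of different probes were not set against each other. Probes were named by accession (24375), by symbol or synonym (8727) or by the file's own name (1788), and 6284 had no symbol. Where in its gene a probe lies was not analysed here.

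The members and gene lists were chosen with earlier results of these data known. Named beside the members were the 3 genes of smallest p in each pathway list and the 5 genes nearest in profile; Ptprb, Acta2, Cnn1, Tagln and Myh11 were named after their values were seen. Of the lists, Angpt4, Ocln, S1pr4, Sgpp2, Apom, Egfl8, Hapln1, Cd79a, Csf3r and Lep were not tested, and Spns2, Mfsd2b, Ccl21a, Pck1 and Hbb-b1 were not matched. Replicate numbers follow accession order, and the labels state no pairing. Over all tested probes, deviations from the group means correlated between arrays of the same number. The r was 0.58 for WT 1 and PKR2 1, 0.50 for WT 2 and PKR2 2, 0.11 for WT 3 and PKR2 3, and 0.35 for WT 4 and PKR2 4. Among arrays of unlike number the highest r was 0.42, for WT 3 and PKR2 2. What these arrays share was not tested. Alternatives were other background corrections, normalizations, probe filters and variance models, array weights, slide, array position, scan range, marker covariates and leaving out each array; the first component as a covariate was added after seeing the data.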

Additional observations from a re-analysis of the deposited data

Results flagged for a closer look

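Pecam1 in WT 1 stood apart from the other WT arrays: its level was 0.77, the nearest other WT array was at -0.041, and this gap was 0.94 of the range of the group, above Dixon's 95% critical value of 0.829 for 4 samples. It was the only such array among 26 groups of 4 checked (13 member probes in WT and in PKR2), where chance gives about 1 in 20. PKR2 1, at 0.89, was also the highest of its group, with the next PKR2 array at 0.37, and did not pass that value.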

How the results depend on the processing

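In every setting 0 of the 13 member probes passed in limma, and the lowest adjusted p of any was 0.388 (Angpt1 and the second Cdh5 probe, array weights, 0.72 and 0.59). Over all probes the count past the threshold was 0 and became 1 with the filter on all 8 arrays, with slide as a random block and with trended robust variance, 5 with array position as a covariate, and 0 to 1 on leaving out 1 array (1 without PKR2 3). The change of Tek relative to Tie1 was 0.69 within slide 6. Signs turned as follows, and the cause was not tested. Array position, which sets the PKR2 arrays against WT 1 alone, gave Angpt1 -0.13, its second probe -0.10, Angpt2 0.18, Cdh5 0.072, its second probe -0.027, Egfl7 -0.51, Pecam1 -0.39 and Tek -0.43. Normexp, which moved the median of all probes to -0.12, gave Angpt1 -0.17, its second probe -0.38, Cdh5 0.29, the second Tek probe -0.48 and Tie1 0.054. This setting added an offset of 50 to every spot. The 75th percentile of processed signal was 40.9 in WT 2, 87.5 in PKR2 4 and 116 in WT 4. On the other arrays it was 318 or more, so the offset was larger relative to signal on the dim arrays. Array weights gave Angpt2 0.18 and S1pr1 -0.044, the adipocyte covariate Angpt2 0.22, scan range Angpt2 0.055, the endothelial mean as base Angpt2 0.0033, median scaling Egfl7 -0.051, and the first component Egfl7 -0.11 and Tek -0.024. Slide as a fixed block gave Egfl7 -0.053, Icam2 -0.067 and S1pr1 -0.00047, and as a random block Egfl7 -0.012. Within slide 5 Icam2 was -0.055, S1pr1 -0.12 and Tie1 0.17, and within slide 6 Cdh5 0.21, Egfl7 -0.28, Icam2 -0.079 and Tek -0.029. Leaving out 1 array gave Angpt2 -0.22 to 0.12 (sign turned without WT 4, PKR2 1 or PKR2 2), Egfl7 -0.19 to 0.19 (without WT 2, WT 3, PKR2 1 or PKR2 4), Tek -0.062 to 0.26 (without WT 2, WT 3 or PKR2 1), S1pr1 -0.13 to 0.29 (without WT 1, PKR2 2 or PKR2 3) and Tie1 -0.32 to 0.041 (without WT 4). The correlation of Angpt1 with Angpt2 was -0.22 in the authors' table. Esam kept its sign in every setting. With normexp, Esam with Icam2 (r = 0.87) and Tie1 with Tek (r = 0.82) passed after adjustment (exact permutation, adjusted p = 0.0418 each). No fit was paired by replicate number, since the numbers follow accession order; the fixed slide block is the comparison within slides 5 and 6. Signal over background limits the second Pecam1 probe and Prokr2.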
